A study of Oryza sativa Japonica Group with 3 samples.

Results

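The 7 loci described here encode enzymes that remove superoxide and peroxides in the rice seed: 3 Cu/Zn superoxide dismutases (SODs), 1 Mn SOD, 2 Fe SODs and a seed 1-Cys peroxiredoxin. They were taken from 55986 loci by locus ID and enzyme class, under a rule that uses no measured value, although earlier results of these data were known when the group was chosen. The deposited tables carry IDs only and a RefSeq gene table matched 0 of the 7, so the enzyme names are those under which the loci were selected. RNA came from whole seeds of Jiucaiqing, a landrace of japonica rice, taken dry (0 h), after 24 h in distilled water (imbibed) and after 48 h (germinated), at 30 °C. All 3 groups share the landrace, the tissue and the medium, and no group carries a mutation or an added agent. Each stage was sequenced as 1 library, in which 3 biological replicates had been pooled. There is therefore no spread between samples, no test could be run, and each difference is one between pooled libraries. In whole seeds, fewer cells of a type and less RNA per cell cannot be told apart.

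Superoxide dismutases turn superoxide into hydrogen peroxide and oxygen, and are classed by the metal in their active site. In plants the Cu/Zn enzymes work in the cytosol, plastids and peroxisomes, the Mn enzyme in mitochondria and the Fe enzymes in plastids. Peroxiredoxins reduce peroxides through a reactive cysteine, and the 1-Cys type is known from barley and other cereals as a protein of the aleurone and embryo of maturing and dry seeds. Seeds taking up water restart respiration, which is a source of superoxide.

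Levels are given as FPKM, fragments scaled by transcript length and library total, summed over the isoforms of a locus, so that levels of different loci can be set side by side within a library. The FPKM tables carry no read totals, and the absolute depth is unknown. The relative worth of 1 read, estimated from the commonest ratio of low isoform values, lay between 0.966 and 1.09 for the 3 pairs of libraries. The summed FPKM of a library was 881252 at 0 h, 580571 at 24 h and 535327 at 48 h. All 7 loci were at 1 FPKM or more in every library and were kept among the 20915 loci that reached this level in at least 1. A locus was called higher or lower when it differed by at least 2-fold on the log2(FPKM + 1) scale. The 3 comparisons are called the first day (24 h against 0 h), the second day (48 h against 24 h) and the whole course (48 h against 0 h).

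The 1-Cys peroxiredoxin led the group in the dry seed and was among its lower members by 48 h, the 3 Cu/Zn SODs fell on the first day, the Mn SOD stayed among the abundant transcripts throughout, and the 2 Fe SODs were the lowest. The order of levels in the dry seed ran from the peroxiredoxin through the Mn SOD and the Cu/Zn SODs LOC_Os07g46990, LOC_Os03g22810 and LOC_Os08g44770 to the Fe SODs LOC_Os06g02500 and LOC_Os06g05110. At 24 h the Mn SOD had passed the peroxiredoxin. At 48 h the peroxiredoxin stood 5th of the 7, below all 3 Cu/Zn SODs. Whether neighbours in these orders differ beyond the spread of replicates cannot be said from single libraries.

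**Figure D1:**
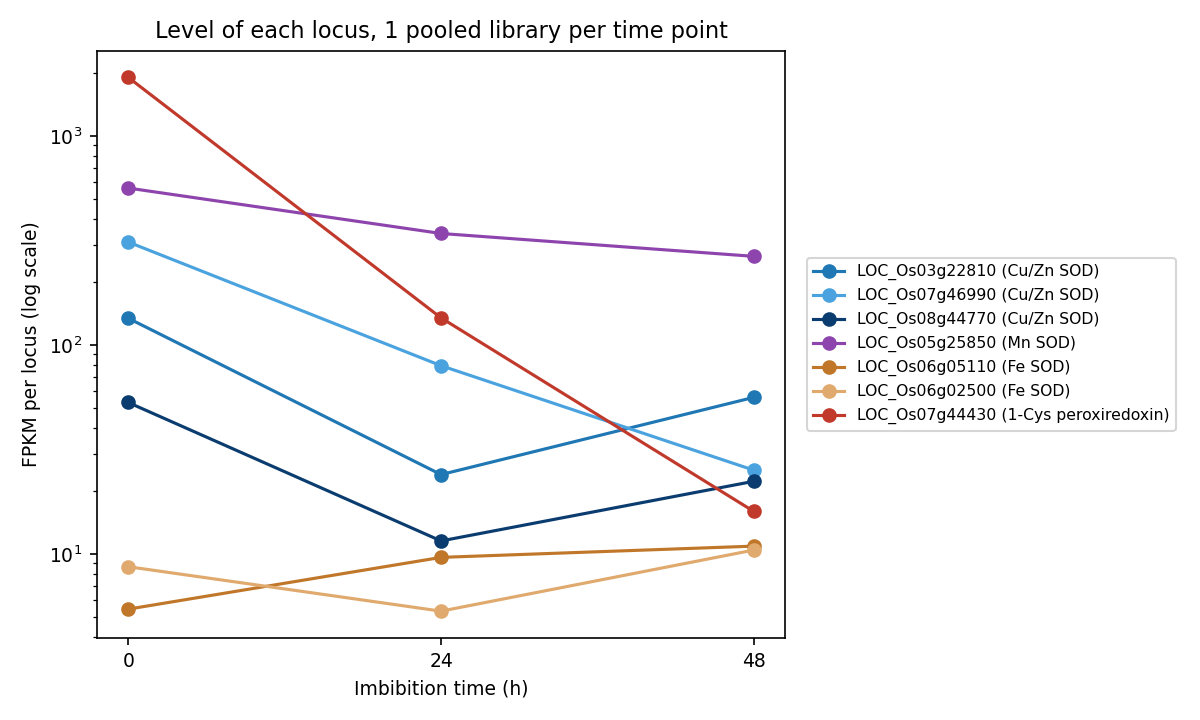
FPKM of each of the 7 loci (log scale) against imbibition time in hours, with 1 point per pooled library and lines joining the points of a locus. The peroxiredoxin line crosses below the Mn SOD by 24 h, where it is at 135 FPKM, and below the 3 Cu/Zn SODs by 48 h, where it is at 16.0 FPKM.

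The 1-Cys peroxiredoxin, LOC_Os07g44430 on chromosome 7 by its ID, was at 1903, 135 and 16.0 FPKM at 0, 24 and 48 h. It was high in the dry seed and lower at each later stage. Its rank among all loci was 62 at 0 h, 508 at 24 h and 4228 at 48 h. The log2 difference was -3.81 over the first day, -3.00 over the second day and -6.81 over the whole course. The level at 24 h was 7.07% of that at 0 h, and the level at 48 h was 0.839% of it. Among the 20915 loci, 155 had a more negative difference over the first day, 140 over the second and 99 over the whole course.

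Large falls from the dry seed were common among its most abundant transcripts. Of the 105 loci at 1000 FPKM or more at 0 h, 84 were at least 2-fold lower at 24 h and 93 at 48 h. The median log2 differences from 0 h were -3.6 at 24 h and -6.95 at 48 h. The second day was not counted for these loci. For 48 h against 0 h the peroxiredoxin lay close to the median, and 54 of the 105 had a more negative difference. Being at 1000 FPKM or more at 0 h favours a lower value elsewhere by selection alone. The loci most like it over the 3 libraries, by Euclidean distance on log2(FPKM + 1), were LOC_Os03g02050 at a distance of 0.24 and LOC_Os11g05170 at 0.34, out of 20908 compared. LOC_Os03g02050 was at 2127, 121 and 17.0 FPKM at 0, 24 and 48 h. LOC_Os11g05170 was at 2154, 129 and 12.9 FPKM. Both were at least 2-fold lower at each step.

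The loci next to the peroxiredoxin by ID did not share its course. LOC_Os07g44440 was at 1.36, 1.97 and 20.2 FPKM at 0, 24 and 48 h. It was lowest in the dry seed, where the peroxiredoxin was highest, and its log2 difference over the whole course was 3.17. LOC_Os07g44420 was listed at 0.62, 0 and 0.52 FPKM, under the filter in all 3 libraries. The sources used here do not annotate these 2 IDs, and whether reads are shared between neighbouring loci was not tested.

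The Cu/Zn SODs were all highest in the dry seed and all fell by 24 h, but then parted. LOC_Os07g46990 on chromosome 7 was at 310.3, 79.5 and 25.1 FPKM at 0, 24 and 48 h. It fell at both steps, with log2 differences of -1.95 over the first day and -1.62 over the second. LOC_Os03g22810 on chromosome 3 was at 134, 24.0 and 56.1 FPKM. It was lowest at 24 h, with a log2 difference of -2.44 over the first day, and rose again by 1.19 over the second. LOC_Os08g44770 on chromosome 8 was at 53.0, 11.5 and 22.2 FPKM. It too was lowest at 24 h, with a log2 difference of -2.11 over the first day, while its difference of 0.89 over the second was under 2-fold. That second-day difference was 1.01 with the same sum per library.

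The levels of LOC_Os03g22810 and LOC_Os08g44770 kept a similar ratio within each library, of 2.53 at 0 h, 2.08 at 24 h and 2.52 at 48 h. That of LOC_Os07g46990 over LOC_Os03g22810 was 2.32 at 0 h, 3.32 at 24 h and 0.448 at 48 h. Among the Cu/Zn SOD members, the leading transcript was thus LOC_Os07g46990 in the dry and imbibed seed and LOC_Os03g22810 in the germinated seed. These ratios are taken inside a library, so no scaling between libraries alters them.

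Over all loci tested, the courses of LOC_Os03g22810 and LOC_Os07g46990 were each shared with few. The median level of the loci tested was 4.09 FPKM at 0 h. A locus near the floor has little or no room to fall 2-fold on this scale. The shares below are therefore not those among loci as abundant as these members. Being at least 2-fold lower at 24 h and then at least 2-fold higher at 48 h, as LOC_Os03g22810 was, held for 260 of the 20915 loci, or 1.24%. Being at least 2-fold lower at both steps, as LOC_Os07g46990 and the peroxiredoxin were, held for 700 loci, or 3.35%. All 3 Cu/Zn SODs and the peroxiredoxin were highest at 0 h by at least 2-fold over both later stages, a profile of 12.3% of loci. With each library rescaled to the same sum, LOC_Os07g46990 and the peroxiredoxin kept this profile, beside 6.49% of loci, while LOC_Os03g22810 and LOC_Os08g44770 were under 2-fold for 48 h against 0 h.

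The Mn SOD, LOC_Os05g25850 on chromosome 5, was the most abundant of the SOD members in all 3 libraries. Its level was 562, 341 and 265 FPKM at 0, 24 and 48 h, a lower value at each stage. The log2 difference was -0.72 over the first day and -0.36 over the second, both under 2-fold, and -1.08 over the whole course. Its rank among all loci moved little, at 187, 146 and 194. Only 52 loci ranked within the highest 200 in all 3 libraries, a limit chosen after the values were seen, and the Mn SOD was the one member among them. The 2 loci most like it were LOC_Os08g13690, at 533, 304 and 272 FPKM with a distance of 0.18, and LOC_Os01g59990, at 470.4, 357 and 271 FPKM with a distance of 0.27.

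The Fe SODs, both on chromosome 6, were the lowest members in every library. LOC_Os06g05110 was at 5.44, 9.62 and 10.9 FPKM at 0, 24 and 48 h, lowest in the dry seed. LOC_Os06g02500 was at 8.68, 5.32 and 10.4 FPKM, lowest at 24 h. As deposited, neither passed 2-fold in any of the 3 comparisons, with log2 differences over the whole course of 0.88 for LOC_Os06g05110 and 0.24 for LOC_Os06g02500. With the same sum per library LOC_Os06g05110 was at least 2-fold higher, with 1.24 over the first day and 1.51 over the whole course. With the most abundant locus left out of that sum LOC_Os06g02500 was higher too, with 1.13 over the second day and 1.11 over the whole course. Staying within 2-fold in all 3 comparisons was common, at 41.8% of the loci tested. At these levels the pseudocount shrinks a difference, and the FPKM ratio for LOC_Os06g05110 was 2.0 at 48 h over 0 h.

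Members differed widely in how far they moved over the course. As deposited, the highest FPKM of a locus over its lowest was 119 for the peroxiredoxin, 12.3 for LOC_Os07g46990, 5.6 for LOC_Os03g22810 and 4.6 for LOC_Os08g44770. It was 2.12 for the Mn SOD, 2.0 for LOC_Os06g05110 and 1.96 for LOC_Os06g02500. On the log2(FPKM + 1) scale the range of the Mn SOD was 1.08 and those of the Fe SODs 0.88 and 0.85, against a median of 1.14 over all loci tested. These figures depend on how the libraries were scaled. With the same sum per library, the whole-course log2 difference was -0.36 for the Mn SOD, 1.51 for LOC_Os06g05110 and 0.89 for LOC_Os06g02500. The range of 6.81 of the peroxiredoxin was larger than that of 99.4% of loci. A locus at the median of 4.09 FPKM at 0 h has no room to fall that far. Of the 105 loci at 1000 FPKM or more at 0 h, 54 fell further by 48 h.

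Summed over the 6 SOD loci, the transcript level was 1074, 471 and 389.9 FPKM at 0, 24 and 48 h. The sum at 48 h was thus 36.3% of that in the dry seed as deposited. With each library rescaled to the same sum it was 59.8%, a difference under 2-fold, and with the most abundant locus left out of that sum 70.9%. The 3 Cu/Zn SODs together were at 497, 115 and 103 FPKM, and took 46.3%, 24.4% and 26.5% of the SOD sum. The Mn SOD took 52.4%, 72.4% and 68.0%. The Fe SODs together were at 14.1, 14.9 and 21.3 FPKM and took 1.31%, 3.17% and 5.47%, the one class whose share grew at each step.

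The ratios between classes within a library also moved. The Mn SOD over the summed Cu/Zn SODs was 1.13 at 0 h, 2.97 at 24 h and 2.56 at 48 h. The rise in this ratio thus came on the first day, and the ratio was somewhat lower again at 48 h. The peroxiredoxin over the summed SODs was 1.77, 0.286 and 0.0409 at 0, 24 and 48 h. Its transcript in the dry seed therefore exceeded those of all 6 SODs together, and in the germinated seed it was a small part of their sum.

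**Figure D2:**
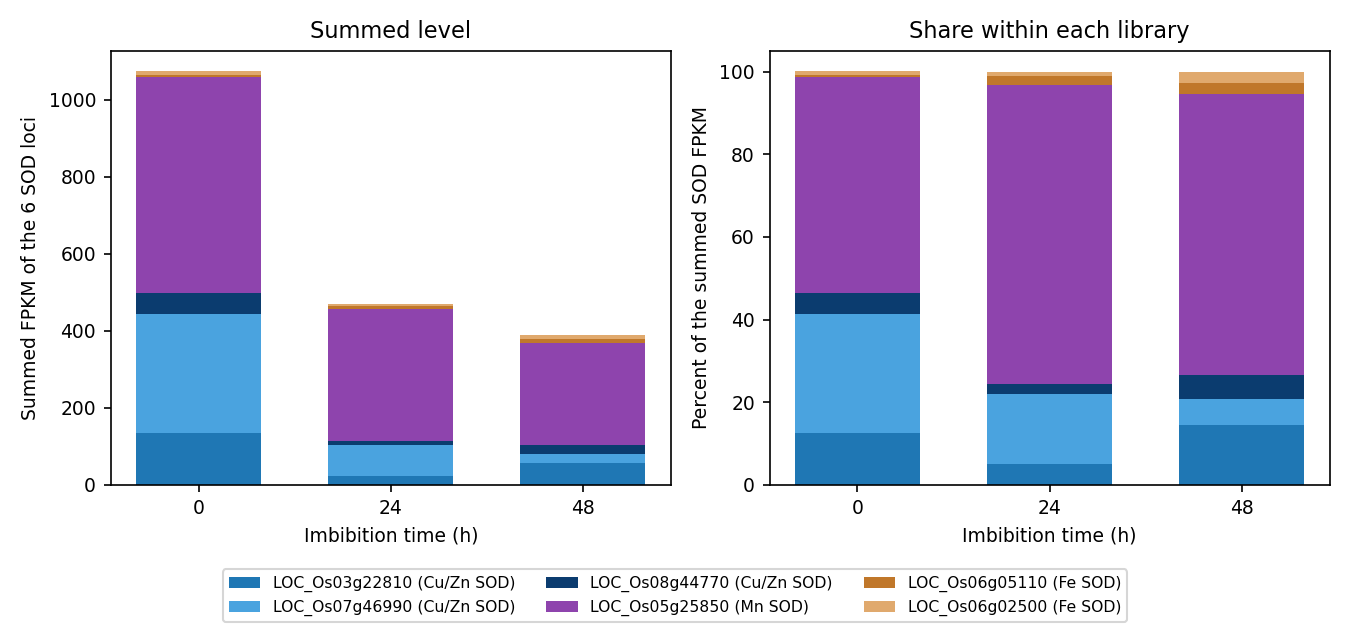
Stacked bars of the 6 SOD loci at 0, 24 and 48 h, as summed FPKM on the left and as percent of that sum in the same library on the right. The summed level is 1074, 471 and 389.9 FPKM in time order, and the Mn SOD takes 52.4%, 72.4% and 68.0% of it.

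The first day, 24 h against 0 h, covered water uptake. Of the 7 members, 4 were at least 2-fold lower and 0 at least 2-fold higher, beside 15.4% and 17.7% of all loci. The 4 were the 3 Cu/Zn SODs and the peroxiredoxin. The median log2 difference was -1.95 for the 7 members and 0.06 for all loci tested. With the same sum per library the same 4 members were lower, beside 8.2% of loci, and LOC_Os06g05110 was higher, beside 28.6%, with a median of 0.45 for all loci.

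The second day, 48 h against 24 h, covered the passage to the germinated seed. Of the members, 2 were at least 2-fold lower, the peroxiredoxin and LOC_Os07g46990, beside 10.9% of all loci. LOC_Os03g22810 was the 1 member at least 2-fold higher, beside 13.8% of all loci. The median log2 difference was 0.16 for the members and 0.02 for all loci. The members' median was thus near that of all loci, but it lies between members that moved in opposite directions. It was 0.51 for the 6 SODs and 0.89 for the 3 Cu/Zn SODs.

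The whole course, 48 h against 0 h, shares its libraries with the other 2 comparisons. Of the members, 5 were at least 2-fold lower and 0 at least 2-fold higher, beside 20.4% and 27.5% of all loci. They were the peroxiredoxin, LOC_Os07g46990 with a log2 difference of -3.57, LOC_Os03g22810 with -1.24, LOC_Os08g44770 with -1.22 and the Mn SOD with -1.08. The last 3 lay just past 2-fold and depended on how the libraries were scaled.

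**Figure D3:**
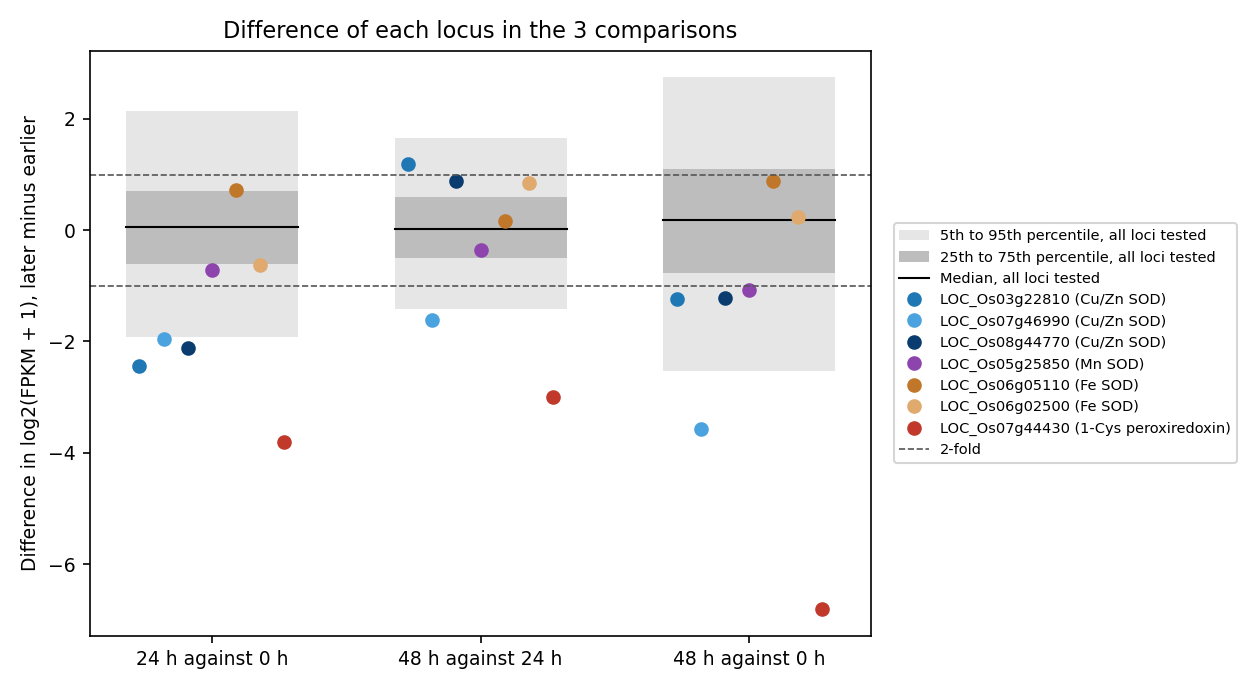
Difference in log2(FPKM + 1), later minus earlier library, for each of the 7 loci in the 3 comparisons, over grey bands for the 5th to 95th and 25th to 75th percentiles of the 20915 loci tested, with a line at their median and dashed lines at 2-fold. The peroxiredoxin, at -3.81, -3.00 and -6.81, and LOC_Os07g46990, at -1.95, -1.62 and -3.57, lie below the light band in all 3 comparisons. LOC_Os03g22810 and LOC_Os08g44770 lie below it for 24 h against 0 h. The 2 Fe SODs, as deposited, lie between the 2-fold lines.

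With each library rescaled to the same sum, the log2 differences over the whole course were -0.53 for LOC_Os03g22810, -0.52 for LOC_Os08g44770 and -0.36 for the Mn SOD, all under 2-fold. The peroxiredoxin at -6.11 and LOC_Os07g46990 at -2.87 were still at least 2-fold lower. This rescaling gave a median difference of all loci of 0.72, against 0.18 as deposited, and the shares of loci called became 11.8% lower and 41.2% higher. Taken relative to that median, the differences were -1.26 for LOC_Os03g22810, -1.24 for LOC_Os08g44770, -1.09 for the Mn SOD and 0.78 for LOC_Os06g05110. The calls were then those of the values as deposited. Subtracting the median takes the rescaling out again, apart from the pseudocount. That return was thus nearly fixed in advance and is no independent support for those calls.

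**Figure D4:**
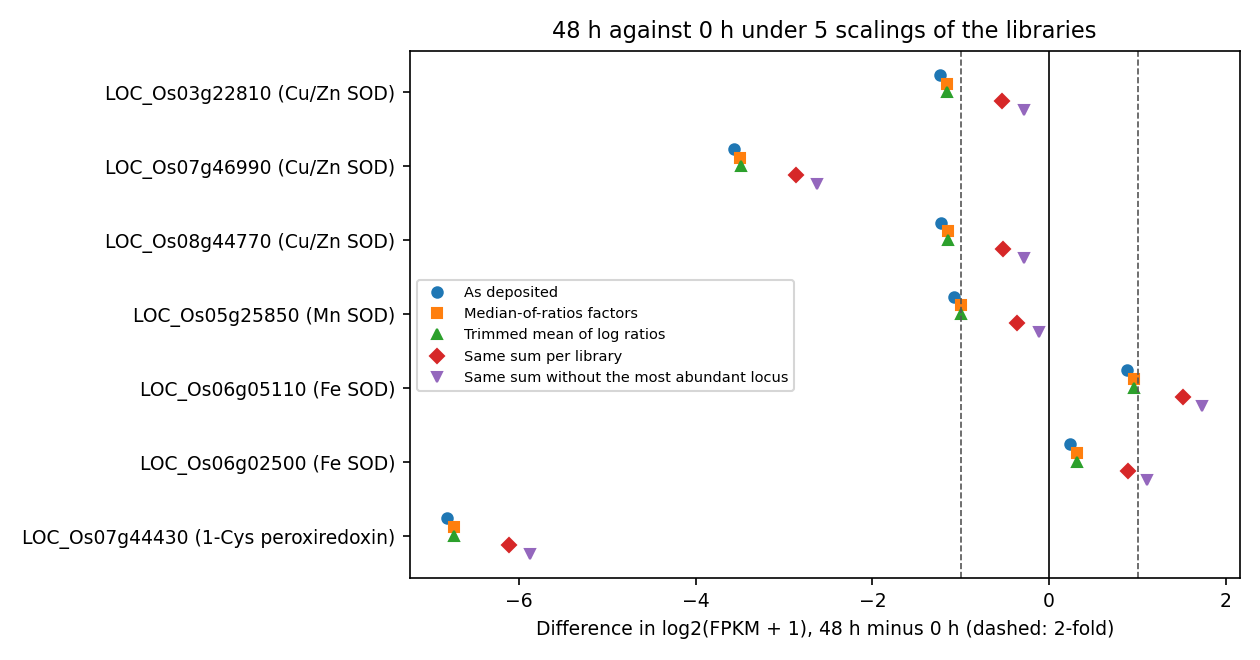
Difference in log2(FPKM + 1) for 48 h minus 0 h, by locus, with 1 symbol for each of 5 scalings of the libraries and dashed lines at 2-fold. The peroxiredoxin and LOC_Os07g46990 lie past 2-fold under every scaling drawn, at -6.11 and -2.87 with the same sum per library, while the other 2 Cu/Zn SODs and the Mn SOD lie inside the lines under both sums.

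The 7 loci have 11 listed isoforms, and 1 isoform carried most of each locus in every library. LOC_Os07g46990.2 was at 285, 71.9 and 20.2 FPKM at 0, 24 and 48 h, and LOC_Os07g46990.1 at 25.1, 7.56 and 4.96 FPKM. The isoform LOC_Os07g46990.2 thus held 91.9%, 90.5% and 80.3% of the locus, its smallest share being at 48 h. The Fe SOD LOC_Os06g05110 had 85.3%, 86.4% and 88.4% of its level in isoform LOC_Os06g05110.1. The second isoforms of the Mn SOD, LOC_Os05g25850.2, and of the Cu/Zn SOD LOC_Os08g44770, LOC_Os08g44770.2, were listed at 0 in all 3 libraries, which can be a failed estimate. If RSEM made these values, it split reads that fit several isoforms by estimate, and shares of single isoforms are then less certain than the sums.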

How the data were processed

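The authors deposited 1 table of FPKM per library, to 2 decimals, with 1 value for each of 66338 isoforms. The submitters' processing notes name RSEM 1.1.11, edgeR 2.3.52 and FastQC, with no role for any of them. The column names, per the file headers, point to isoform results. Per the labels, RNA was poly(A)-enriched. Not given in the sources used here are the aligner, genome build, annotation and scaling between libraries, so no coordinates or sequences are printed.

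Isoforms were summed per locus ID without its suffix. The filter kept a locus that reached 1 FPKM in any library, and differences were taken on log2(FPKM + 1), which understates changes of low loci. With 1 library per stage the size rule of 2-fold replaced a test. The code for the rule and the scaling factors was run on simulated data with planted changes and a common factor per library. Recovery was nearly fixed in advance, so the run checked the code only. It did not simulate a change in which loci make up the sum of a library. The spread of replicates was unknown and could not be copied. The members and lists were chosen with earlier results of these data known. Named loci were all 7 members, the 2 loci nearest in profile to the peroxiredoxin and to the SOD with the highest mean, and the IDs next to the peroxiredoxin. A planned list of other antioxidant genes could not be used, because no enzyme names could be tied to the IDs through the reference table of 39387 genes. No markers of seed tissues were given for this group of loci, and none were checked. Software was pandas 2.3.3, numpy 2.4.6 and matplotlib 3.10.9 under Python 3.11.15.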

Additional observations from a re-analysis of the deposited data

How the results depend on the processing

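No paired analysis was possible because a stage has a single library, and for the same reason none was left out. Under 11 other settings (pseudocounts of 0.1 and 5 FPKM, no filter, a filter of 5 FPKM, rules of 4-fold and 1.5-fold, 4 scalings and the most abundant isoform), 0 of 231 log2 differences of members changed sign and 27 changed their call; 52 of 66 counts of members stayed within 1.5 times. Pseudocounts, filters and rules of size cannot turn a sign, so only the scalings and the most abundant isoform could have done so. The filter settings could not alter a call or count of members either, since every member passed them. Shares of the SOD sum could differ only with the most abundant isoform in place of the locus sum. There, 18 of 18 stayed within 1.5 times. A common factor cannot alter a share within a library. The other counts follow. At 4-fold, 0 members were higher and 1 lower over the second day (48 h against 24 h), and 2 lower over the whole course (48 h against 0 h). At 1.5-fold, 1 was higher over the first day (24 h against 0 h), 3 over the second and 1 over the whole course. With the same sum per library, 1, 2 and 1 were higher in that order and 2 lower over the whole course. Leaving the most abundant locus out of the sum gave 1, 3 and 2 higher and 2 lower over the whole course; medians of all loci were then 0.49, 0.25 and 0.91. Scaling by a trimmed mean put the Mn SOD just under 2-fold over the whole course, leaving 4 lower. Relative to the median of all loci, an alternative chosen after seeing the data, the counts were those as deposited under both sums and without rescaling. Subtracting that median cancels a factor common to a library, apart from the pseudocount. Both sums therefore had to give nearly the same values as no rescaling. Without read totals, the counting error of the low Fe SOD values cannot be given.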
